A study of Mus musculus with 3 samples.

Results

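Aire, Fezf2 and 6 genes that mark the maturation of medullary thymic epithelial cells (TECs) were followed in the nonhematopoietic cells of the aged mouse thymus. The 8 genes, taken from 32293 features that were counted, were Aire, Fezf2, Cd80, Cd86, Ubd, Prdm1, Hdac9 and Utf1. Each was measured in epithelial barcodes, defined as called cell barcodes with at least 2 unique molecular identifiers (UMIs) of the epithelial surface gene Epcam and no UMI of the endothelial gene Pecam1 or the fibroblast gene Pdgfra.

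Medullary TECs show developing T cells the proteins of other tissues, so that self-reactive clones are deleted or diverted. Aire, the autoimmune regulator, releases stalled polymerase at many silent genes and so drives this promiscuous expression, while the zinc-finger factor Fezf2 drives a separate set of tissue-restricted genes. Signals through RANK, CD40 and the lymphotoxin receptor bring medullary TECs to the Aire stage, at which they also carry abundant MHC class II and the costimulatory ligands CD80 and CD86.

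Single-cell 3′ RNA sequencing covered CD45- stromal cells sorted from untreated C57BL/6 mice aged 20 months, in 3 libraries that were each the only library of its group (n = 1). Foxn1Lin female and Foxn1Lin male came from the Foxn1 lineage trace, in which a Cre recombinase driven by Foxn1 turns on tdTomato from the Rosa26 locus for good, and wild type male carried no reporter. The thymi of several mice were pooled for a library, so the spread between animals is not measured. The protocol text speaks of female mice for all libraries, and the labels of wild type male disagree, with CD45- as title and CD45-PECAM1+ as cell type.

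The called barcodes numbered 8616, 3583 and 5478 in Foxn1Lin female, Foxn1Lin male and then wild type male, an order kept in every series of 3 values below. They held 53366016, 33386621 and 61258534 UMIs, and the libraries shared 3 to 14 barcodes in pairs. Foxn1Lin female was the shallowest library, with a median of 4675 UMIs per barcode, and had the most RNA outside called barcodes, at 26.5% of its UMIs against 12.9% and 9.46%. Xist stood at 554.1 counts per 1e6 UMIs (CPM) in Foxn1Lin female and at 0.27 and 0.34 in the male libraries, and the reporter had 0 UMIs in wild type male. Endothelial barcodes (Pecam1) and fibroblast barcodes (Pdgfra) were taken by the mirrored rule, and the 917 epithelial and 1618 fibroblast barcodes of wild type male go with its title and not with a PECAM1+ sort.

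The epithelial gate held 408, 436 and 917 barcodes, with a median of 11138, 12670 and 16836 UMIs. The 6 TEC markers other than Epcam, which sets the gate, were all detected in it in every library, with a summed level of 6305 to 7769 CPM against 123.6 to 243.7 CPM in endothelial barcodes. A Ptprc UMI, the transcript of CD45, was found in 11.8%, 2.06% and 2.51% of the epithelial barcodes. To compare cells at equal depth, each cell was thinned at random to 4000 UMIs, which left 351, 372 and 844 cells and set aside 57, 64 and 73 shallower ones.

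The proximal promoters of Aire, Ubd and Hdac9 are shown because Aire was largely limited to the epithelial gate, Ubd was shared with endothelial cells and Hdac9 was spread over the stroma, and because RefSeq and the annotation of the files share a start for each. For Hdac9 RefSeq has a second start within the gene, which is not shown. Each line is the 120 bases before the RefSeq start on GRCm38, on the strand of the gene and ending at the base before the start. Capitals mark a TATAAA box or the NF-kB motif that reads GGG, any 2 bases and then TTTCC, both searched on both strands, and the matches do not overlap each other.
Aire promoter, chr10:78043611-78043730, minus strand: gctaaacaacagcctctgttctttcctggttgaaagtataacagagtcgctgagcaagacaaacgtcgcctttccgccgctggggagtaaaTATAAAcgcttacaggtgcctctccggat
Ubd promoter, chr17:37193772-37193891, plus strand: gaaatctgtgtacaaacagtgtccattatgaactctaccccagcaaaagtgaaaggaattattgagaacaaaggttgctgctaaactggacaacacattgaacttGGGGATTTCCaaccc
Hdac9 promoter, chr12:34917096-34917215, minus strand: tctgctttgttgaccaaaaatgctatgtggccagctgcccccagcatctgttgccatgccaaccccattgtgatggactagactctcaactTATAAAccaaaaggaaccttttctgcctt
TATAAA lay 29 to 24 bases before the start in both Aire and Hdac9, and was held by 6.34% of 32851 RefSeq windows of the same length. The NF-kB motif lay 15 to 6 bases before the start of Ubd and was held by 0.737% of the windows. A match is only a run of letters, and 7 of the 8 genes had a RefSeq promoter entry, Cd86 being the exception.

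Aire (chr10:78030022-78043610, minus strand) was at 206.7 CPM (exact 95% Poisson interval 195 to 219) in epithelial barcodes of Foxn1Lin female, 167.6 CPM (158 to 177) in Foxn1Lin male and 173.7 CPM (168 to 180) in wild type male. At 4000 UMIs, an Aire UMI was found in 26.8% of epithelial cells (exact binomial interval 22.2 to 31.7, 94 cells), 17.5% (13.8 to 21.7, 65 cells) and 20.4% (17.7 to 23.3, 172 cells). Without thinning the shares were 32.4%, 22.9% and 29.2%. Foxn1Lin female was thus the highest library by either measure, while the intervals of Foxn1Lin male and wild type male overlapped, and with 1 library per group no difference between libraries was tested. In endothelial and fibroblast cells, which serve as background, the Aire share at 4000 UMIs was 0.784% to 2.12%, from unthinned median depths of 4115 to 9419.5 UMIs. The 5′ end of Aire overlaps Dnmt3l on the opposite strand by 1664 bases.

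Fezf2 (chr14:12342094-12348189, minus strand) was at 171.2, 170.6 and 145.8 CPM in epithelial barcodes. It was detected in 29.1%, 19.1% and 22.3% of the thinned cells, so its order among the libraries was that of Aire by share and not by level. Cd80 (chr16:38455561-38496335, plus strand), which binds CD28 and CTLA-4 on T cells, was at 129.7, 145.5 and 126.1 CPM and was detected in 26.2%, 19.4% and 19.2% of cells. Its partner Cd86 (chr16:36603869-36666081, minus strand) was far sparser, at 12.2, 17.4 and 14.6 CPM and in 3.13%, 3.23% and 3.67% of cells. In endothelial and fibroblast cells at the same depth the shares reached 1.06% for Fezf2, 0.779% for Cd80 and 0.609% for Cd86 at most, below the epithelial share in every library. The libraries differed little in Cd86, and its counting intervals of 9.51 to 15.4, 14.4 to 20.8 and 12.9 to 16.4 CPM overlapped.

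Ubd (chr17:37193892-37196095, plus strand) encodes FAT10, a ubiquitin-like modifier that marks proteins for the proteasome, and was at 1242, 998 and 1003 CPM. It was detected in 56.1%, 36.0% and 41.1% of cells. Hdac9 (chr12:34047580-34917095, minus strand), a class IIa histone deacetylase, spans 869.52 kb and overlaps other genes on both strands, whose part in its reads was not tested. It was at 205, 226 and 276 CPM and in 21.1%, 21.2% and 19.0% of cells, lowest by level in Foxn1Lin female but level with the other libraries by share. Utf1 (chr7:139943789-139945112, plus strand), a chromatin factor known from pluripotent cells, was at 51.3, 83.1 and 56.3 CPM and in 12.0%, 9.41% and 11.3% of cells. Utf1 reached at most 0.482% of endothelial or fibroblast cells. Prdm1 (chr10:44437177-44528501, minus strand), which encodes the repressor BLIMP1, was sparse as well, at 9.24, 4.56 and 7.90 CPM and in 3.42%, 1.08% and 2.96% of cells.

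**Figure D1:**
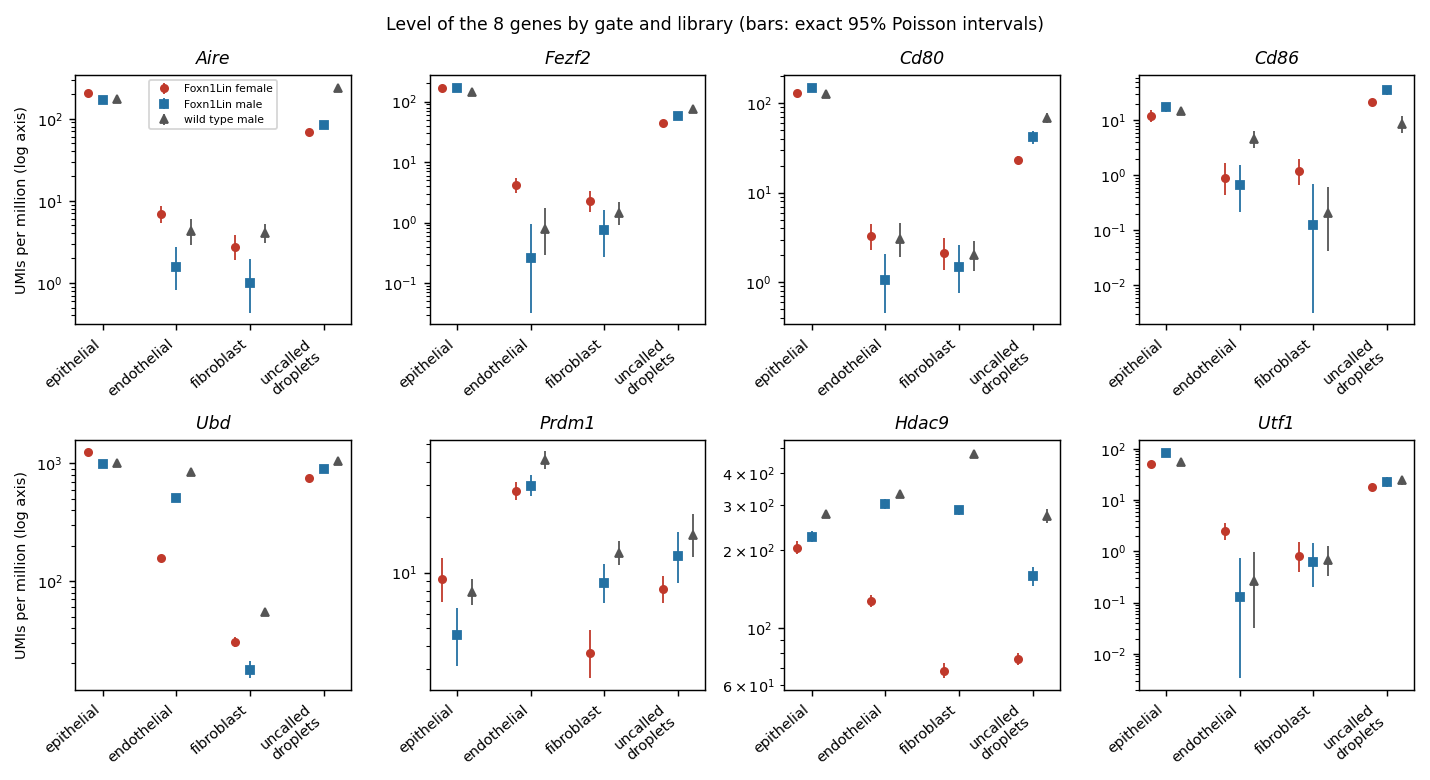
Level of the 8 genes in CPM (log axis) in epithelial, endothelial and fibroblast barcodes and in droplets outside the called barcodes, 1 point per library with its exact 95% Poisson interval. Aire, Fezf2, Cd80 and Utf1 stand far above endothelial and fibroblast barcodes in every library, whereas Ubd is also high in endothelial barcodes and Hdac9 lies in 1 range across the gates.

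Epithelial barcodes were then compared with endothelial and fibroblast barcodes on counts summed per library, with the library as a block. Between epithelial and endothelial barcodes 32.1% of 17408 genes were called higher and 26.0% lower (edgeR quasi-likelihood test, adjusted p below 0.05), and against fibroblasts 29.3% were higher and 26.9% lower. A sum cannot tell more expressing cells from more RNA per cell. Against this background, 5 of the 8 members were higher and 1 was lower than in endothelial barcodes, and 6 were higher and 0 lower than in fibroblasts.

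The members split by where else in the stroma they were found. Aire stood at 6.88, 1.58 and 4.25 CPM in endothelial barcodes and at 2.76, 0.990 and 4.02 CPM in fibroblasts, below the epithelial level in 3 of 3 libraries. Its log2 fold change was 5.17 against endothelial barcodes (SE 0.40, edgeR adjusted p = 1.06e-04) and 5.84 against fibroblasts. Fezf2 differed by 6.32 and 6.48, Cd80 by 5.41 and 5.80 and Utf1 by 5.60 and 6.11 on the same scale, all called. Cd86 was higher by 2.69 (SE 0.82, edgeR adjusted p = 0.0267) and 4.45 (adjusted p = 0.00589), and the former was not called without Foxn1Lin male (2.06, adjusted p = 0.151).

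Ubd was also found in endothelial cells. It was at 157.9, 506.1 and 854.1 CPM in endothelial barcodes, all below the lowest epithelial value. At 4000 UMIs it was detected in 26.8%, 43.5% and 54.6% of endothelial cells, above the epithelial share in both male libraries. Its log2 fold change against endothelial barcodes was 0.94 (SE 0.54, edgeR adjusted p = 0.174), which was not called. Against fibroblasts, where it was at 30.4, 17.7 and 55.0 CPM, it was higher by 4.78 (SE 0.61, edgeR adjusted p = 7.49e-04).

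Prdm1 went the other way. It was at 27.8, 29.7 and 40.9 CPM in endothelial barcodes, above every epithelial value, with a difference of -2.55 on the log2 scale (SE 0.40, edgeR adjusted p = 0.00181). Against fibroblasts, at 3.65, 8.79 and 12.8 CPM, the difference of -0.52 (edgeR adjusted p = 0.311) was not called and had the opposite sign in Foxn1Lin female. Without that library the value was -1.14 and was called, with an adjusted p of 0.0030. Hdac9 was spread over all gates, at 127, 303 and 331 CPM in endothelial barcodes and 68.1, 286.5 and 474.9 CPM in fibroblasts. Its differences of -0.30 and -0.24 (edgeR adjusted p = 0.568 and 0.659) were not called, and Foxn1Lin female was the library with the higher epithelial value. Leaving out Foxn1Lin male or wild type male turned the sign of the difference from fibroblasts, to 0.034 and 0.30. Without Foxn1Lin female both differences were called, at -0.73 and -0.93 (edgeR adjusted p = 0.0109 and 0.00458).

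Droplets outside the called barcodes were measured as a reading of free RNA. Aire was at 69.8, 83.5 and 234.9 CPM in them, above its endothelial and fibroblast levels in 3 of 3 libraries and, in wild type male, above its epithelial level. Fezf2 was at 44.1, 56.9 and 75.4 CPM, Cd80 at 23.1, 41.3 and 68.4 CPM and Utf1 at 18.0, 22.8 and 24.4 CPM, each below the epithelial level of its library. Cd86, at 22.0, 35.3 and 8.59 CPM, was above its epithelial level in both Foxn1Lin libraries, as Prdm1 (8.18, 12.3 and 16.1 CPM) was in both male libraries and Ubd (752.7, 903.3 and 1044 CPM) was in wild type male. Hdac9, at 75.8, 158.7 and 272.9 CPM, was below its epithelial level of 205.2, 226.0 and 276.1 CPM, narrowly so in wild type male. The part of free RNA in the shares given below was not tested.

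Cells were next split by Aire at equal depth, to ask which members were found in the same cells. Fezf2 was detected in 63.8% of Aire-positive against 16.3% of Aire-negative cells in Foxn1Lin female, 60.0% against 10.4% in Foxn1Lin male and 68.0% against 10.6% in wild type male. Ubd was detected in 88.3% against 44.4%, 86.2% against 25.4% and 89.5% against 28.7%, and so was the member found in most Aire-positive cells. For both genes the Aire-positive shares lay above all Aire-negative shares, with no overlap between the classes.

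Cd80 was detected in 61.7% of Aire-positive against 13.2% of Aire-negative cells, 60.0% against 10.7% and 59.9% against 8.78%. Its share in Aire-positive cells thus varied by less than 2 points among the libraries. For Cd86 the shares were 6.38% against 1.95%, 13.8% against 0.977% and 11.6% against 1.64%, and in Foxn1Lin female the exact binomial intervals of the classes overlapped (2.38 to 13.4 and 0.635 to 4.48).

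Hdac9 was detected in 45.7% against 12.1%, 49.2% against 15.3% and 52.9% against 10.3% of cells. Utf1 was detected in 30.9% against 5.06%, 41.5% against 2.61% and 35.5% against 5.06%, so the lowest Aire-positive share again exceeded the highest Aire-negative one. Prdm1 showed no such order, with 6.38% against 2.33%, 1.54% against 0.977% and 1.74% against 3.27%, and rested on 41 positive cells of 1567.

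Read from the other side, 69.0%, 77.1% and 64.2% of Utf1-positive cells carried an Aire UMI, and so did 6 of 11, 9 of 12 and 20 of 31 Cd86-positive cells. The same share was 58.8%, 54.9% and 62.2% for Fezf2 and 63.0%, 54.2% and 63.6% for Cd80. It was 42.1%, 41.8% and 44.4% for Ubd, which therefore had many positive cells without a detected Aire UMI at this depth.

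**Figure D2:**
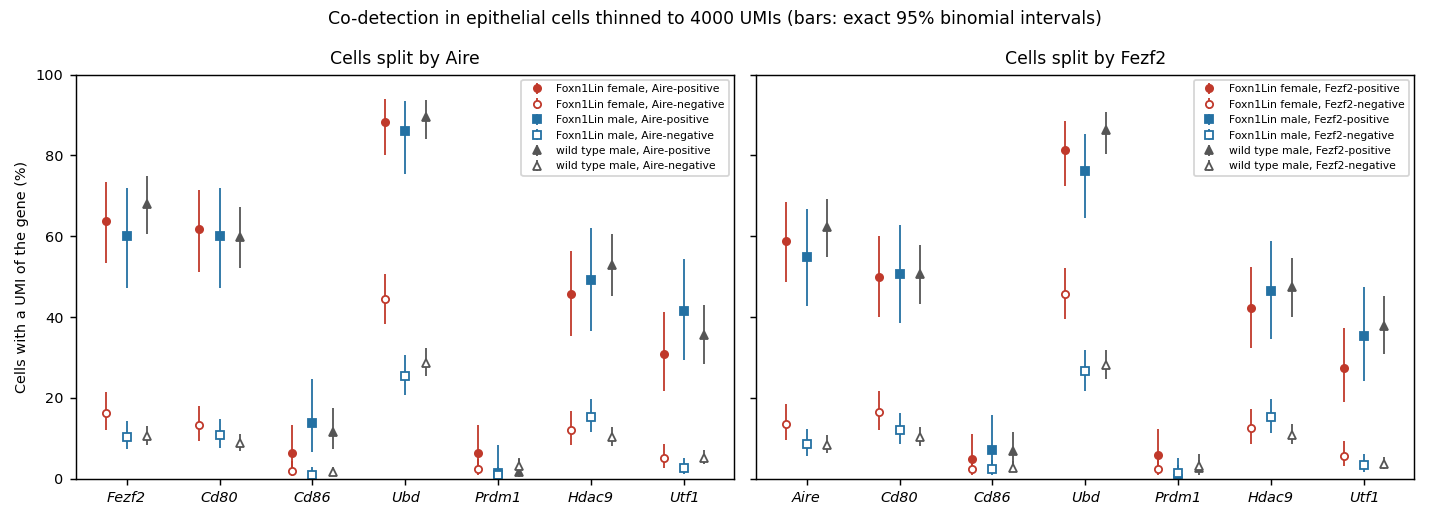
Share of epithelial cells with a UMI of each gene, in percent, after thinning to 4000 UMIs, for cells split by Aire (left) and by Fezf2 (right), with exact 95% binomial intervals. Filled symbols stand for positive and open symbols for negative cells of the same library. Prdm1 is the gene whose filled and open symbols keep no common order. The intervals of Cd86 overlap by Fezf2 in every library and by Aire in Foxn1Lin female.

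The counts summed per library and Aire class were tested with the library as a block. Over all 10340 genes tested, 14.7% were called higher and 15.8% lower in Aire-positive cells (edgeR, adjusted p below 0.05). Among the members other than Aire, which defines the classes, 6 of 7 passed the filter of 60 UMIs over the sums, and 6 were called higher and 0 lower.

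Fezf2 rose from 73.9, 48.0 and 54.3 CPM in Aire-negative cells to 454.8, 469.2 and 457.9 CPM in Aire-positive cells. Its log2 fold change was 3.07 (SE 0.20, edgeR adjusted p = 1.33e-06). Utf1 rose from 16.5, 10.6 and 19.7 to 141.0, 246.2 and 177.3 CPM, by 3.60 on the log2 scale (SE 0.28, edgeR adjusted p = 3.95e-06). These classes did not overlap in either gene, and all 3 libraries moved the same way.

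Of the costimulatory ligands, Cd80 rose from 69.1, 76.5 and 53.6 to 332.5, 350.0 and 359.0 CPM, by 2.50 on the log2 scale (SE 0.19, edgeR adjusted p = 3.86e-06). Cd86 rose from 6.81, 10.6 and 7.07 to 16.0, 73.1 and 56.7 CPM, by 2.65 (SE 0.40, edgeR adjusted p = 3.49e-04), on only 64 and 39 UMIs. The rise of Cd86 was smallest in Foxn1Lin female, where it rested on 6 against 7 UMIs. There its Aire-positive level lay below the 22.0 CPM of the droplets outside called barcodes. For both ligands the Aire-positive levels lay above all Aire-negative ones.

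Ubd rose from 713.0, 419.4 and 460.9 to 2431, 2819 and 3209 CPM, by 2.53 on the log2 scale (SE 0.22, edgeR adjusted p = 7.02e-05). Hdac9 rose from 131.3, 168.6 and 161.1 to 526.6, 492.3 and 824.1 CPM, by 2.07 (SE 0.19, edgeR adjusted p = 1.15e-05). Hdac9, which did not separate epithelial from other stromal barcodes, thus differed within the epithelial gate. Prdm1 had under 60 UMIs and was not tested with the others. Without the filter its log2 fold change was 0.29 (SE 0.76, edgeR adjusted p = 0.847).

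Aire UMIs per thinned cell were also taken as a graded measure. Ubd was detected in 44.4%, 25.4% and 28.7% of cells with no Aire UMI, in 77.8%, 76.9% and 86.2% of cells with 1 Aire UMI, and in 96.2%, 100% and 97.5% of cells with 5 or more. Utf1 went from 5.06%, 2.61% and 5.06% with no Aire UMI to 18.5%, 26.9% and 27.7% with 1, and to 38.5%, 83.3% and 35.0% with 5 or more. For Fezf2 the shares were 51.9%, 61.5% and 55.4% with 1 Aire UMI and 80.8%, 66.7% and 70.0% with 5 or more. Most of the difference in Fezf2 and Ubd thus lay between no UMI and 1 UMI. The bins of 2 UMIs in Foxn1Lin female and of 2 or more in Foxn1Lin male held 11 to 16 cells, so an order among the upper bins is not read from them.

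**Figure D3:**
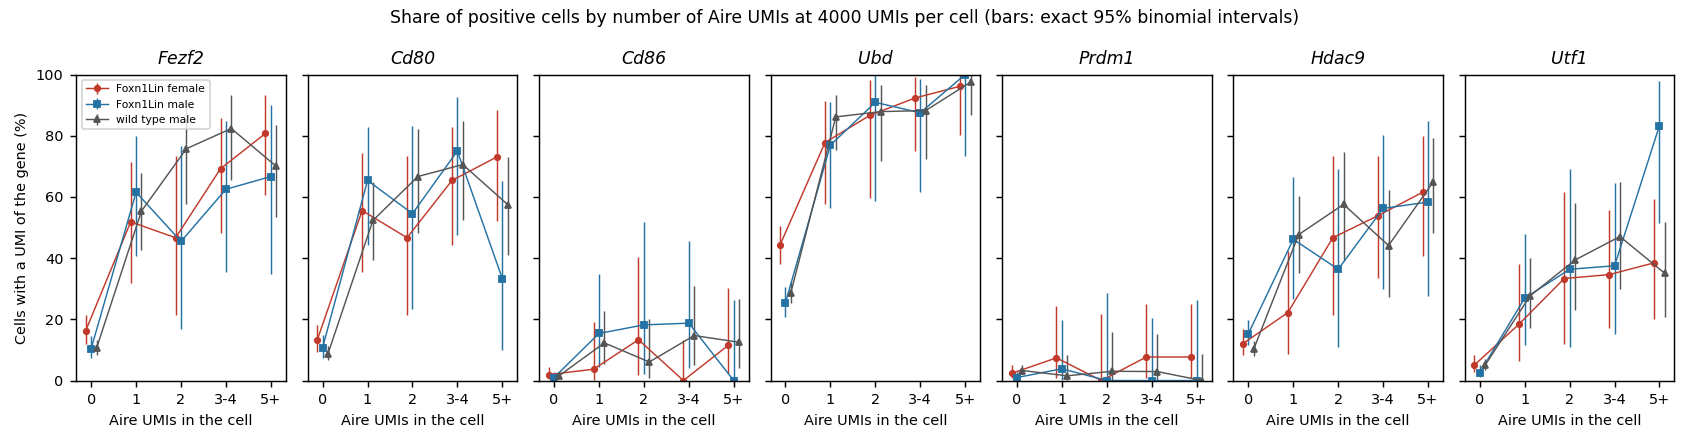
Share of thinned epithelial cells with a UMI of each member, in percent, against the number of Aire UMIs in the same cell, 1 line per library, with exact 95% binomial intervals. The shares of Fezf2, Cd80, Ubd, Hdac9 and Utf1 are higher with 1 Aire UMI than with none in every library, while Prdm1 stays low throughout.

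The same cells were split by Fezf2. This split shares its cells with the split by Aire, so the values stand side by side and are not independent. Aire was detected in 58.8% of Fezf2-positive against 13.7% of Fezf2-negative cells, 54.9% against 8.64% and 62.2% against 8.38%. Of all genes tested, 12.6% were called higher and 12.7% lower in Fezf2-positive cells, and among the members 6 of 6 tested were higher and 0 lower.

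Aire rose by 2.87 on the log2 scale (SE 0.17, edgeR adjusted p = 1.43e-06), from 90.4, 56.5 and 62.5 to 600.5, 387.3 and 485.4 CPM. Utf1 rose by 3.41 (SE 0.42, edgeR adjusted p = 0.00179), and was 1 of the 10 genes with the largest rise. Cd80 rose by 2.03, Ubd by 2.03 and Hdac9 by 1.83, with edgeR adjusted p from 6.49e-06 to 3.63e-04. Cd86 rose by 1.19 (SE 0.37, edgeR adjusted p = 0.0312), from 6.02, 17.4 and 14.1 to 17.2, 38.7 and 27.9 CPM. This call was lost in 6 of 15 alternatives, with an adjusted p of up to 0.216, among them those without Foxn1Lin female (0.0680) and without Foxn1Lin male (0.0834). Prdm1 was detected in 5.88% of Fezf2-positive against 2.41% of Fezf2-negative cells in Foxn1Lin female, 0 of 71 against 1.33% in Foxn1Lin male and 2.66% against 3.05% in wild type male.

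Among cells with no Aire UMI, the members still differed by Fezf2. In these cells alone Cd80 was higher by 2.34 (SE 0.27), Ubd by 1.86 (SE 0.17), Hdac9 by 2.35 (SE 0.29) and Utf1 by 3.51 (SE 0.51), with edgeR adjusted p from 5.47e-05 to 0.00132. All 4 members that passed the filter there were called, where 4.37% of 9376 genes were higher. A cell with no Aire UMI at 4000 UMIs may still express Aire below this depth.

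Cells were therefore set in 4 classes, a comparison added after the data were seen. Neither gene was detected in 215, 275 and 601 cells, Aire only in 34, 26 and 55, Fezf2 only in 42, 32 and 71, and both in 60, 39 and 117. Cells with both made up 17.1%, 10.5% and 13.9% of the epithelial cells. At least 3 of the other 6 members were detected in 53.3%, 59.0% and 52.1% of cells with both genes, against 6.05%, 4.36% and 3.99% of cells with neither. The single-gene classes lay between, at 35.3%, 46.2% and 50.9% for Aire only and 21.4%, 34.4% and 33.8% for Fezf2 only.

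Cd80 was detected in 61.8%, 57.7% and 61.8% of Aire-only cells against 33.3%, 37.5% and 36.6% of Fezf2-only cells. Cd86 was detected in 8.82%, 19.2% and 16.4% against 4.76%, 3.12% and 2.82%. Both ligands were thus found more often in Aire-only cells in 3 of 3 libraries. The exact binomial intervals of these shares overlapped for both ligands in every library, at 1.86 to 23.7 against 0.582 to 16.2 for Cd86 in Foxn1Lin female. The summed level of Cd86 in Foxn1Lin female was 22.1 CPM in Aire-only against 23.8 CPM in Fezf2-only cells. On summed counts the differences were 0.77 for Cd80 (SE 0.25, edgeR adjusted p = 0.148), 1.91 for Cd86 (SE 0.55, adjusted p = 0.0911) and 0.90 for Ubd (SE 0.26, adjusted p = 0.136). edgeR called 0 of the 5 members tested, with 3 at an unadjusted p below 0.05, while 1.03% of all genes were called higher and 0.542% lower in Aire-only cells. DESeq2 called 0 of the 4 to which it gave an adjusted p. With another random seed for the thinning, edgeR called Cd80 (0.94, adjusted p = 0.0313), Cd86 (2.66, adjusted p = 0.0124) and Hdac9 (1.02, adjusted p = 0.0150), at 8000 UMIs it called Cd80 (1.37, adjusted p = 0.00482), and without the filter Ubd (0.80, adjusted p = 0.00116). Utf1 had no order here, at 20.6%, 19.2% and 20.0% against 14.3%, 9.38% and 29.6% of cells.

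Cells with both genes were compared with Fezf2-only cells next. Utf1 was detected in 36.7%, 56.4% and 42.7% of cells with both, and rose by 1.61 on the log2 scale (SE 0.40, edgeR adjusted p = 0.0196). Ubd was detected in 90.0%, 89.7% and 94.0% of cells with both against 69.0%, 59.4% and 73.2% of Fezf2-only cells, and rose by 1.23 (SE 0.26, edgeR adjusted p = 0.0148). These were 2 of 5 members, where 3.64% of all genes were higher. Without Foxn1Lin male neither was called (Ubd 0.97, edgeR adjusted p = 0.137 and Utf1 1.16, adjusted p = 0.148), nor was Ubd with another random seed (0.90, adjusted p = 0.0893), under which Cd80 was called (1.11, adjusted p = 0.00402). At 8000 UMIs Cd80 (1.62, edgeR adjusted p = 2.05e-04), Cd86 (2.41, adjusted p = 0.00102) and Hdac9 (0.95, adjusted p = 0.0242) were called higher too. Against Aire-only cells edgeR called 0 of the 5 members in cells with both, with Utf1 (1.25, adjusted p = 0.317) and Cd86 (-1.31, adjusted p = 0.363) at an unadjusted p below 0.05. Of all genes 0.00967% were higher, which is Rps12 alone, a ribosomal gene named after its value was seen, and 7 were lower, while DESeq2 gave 30 higher and 25 lower and another random seed 0 and 1. DESeq2 called 0 of the 3 to which it gave an adjusted p.

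**Figure D4:**
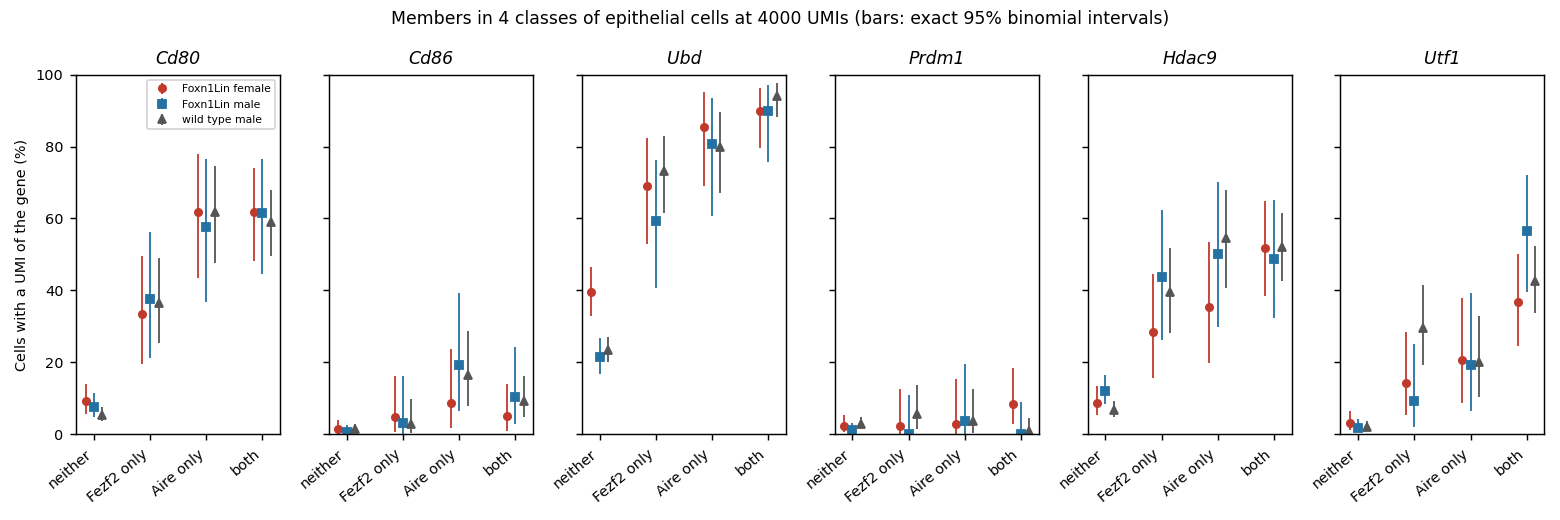
Share of thinned epithelial cells with a UMI of each of the other 6 members, in percent, in cells with neither, only Fezf2, only Aire or both genes, 1 point per library with its exact 95% binomial interval. Cd80 is about as frequent in Aire-only cells as in cells with both genes, whereas Utf1 is highest in cells with both in every library.

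The signals that bring medullary TECs to the Aire stage moved with the members. Of 15 genes of the RANK, CD40, lymphotoxin and NF-kB pathways, 11 rose, 1 fell and 3 did not pass the test in Aire-positive cells, with a median log2 fold change of 1.55 against -0.05 over all genes. Cd40 rose by 3.17, Tnfrsf11a, which encodes RANK, by 2.35 and Tnfrsf11b, osteoprotegerin, a decoy receptor for the ligand of RANK, by 2.34. Ltbr, the lymphotoxin β receptor, fell by 1.16 on the log2 scale. By Fezf2 the counts were 11 higher, 2 lower and 2 not called, with a median of 1.11. Among cells with no Aire UMI, 5 were higher and 1 lower of 15 by Fezf2, with a median of 0.84.

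MHC class II presentation rose in 9 of 10 genes by either split, with medians of 1.33 and 1.16. Cd74, the invariant chain, rose by 1.32 and H2-Aa by 1.26 in Aire-positive cells, and H2-DMa (-0.31) did not pass the test. Among 14 cofactors of Aire and Fezf2, 1 rose, 1 fell and 12 were not called by either split. The deacetylase Sirt1, which activates Aire, rose by 2.66 by Aire and by 2.29 by Fezf2, and Xrcc5, the Ku80 subunit, fell by 1.55 and 1.06.

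Classical Aire-dependent antigens were mostly too rare to test. Of 8 such genes 3 passed the filter, and Tff3 (2.32) and S100a8 (3.33) rose in Aire-positive cells while Crabp1 (3.19, edgeR adjusted p = 0.202) did not pass. Both also rose in Fezf2-positive cells, Tff3 by 3.01 and S100a8 by 2.56. Without Ptprc-positive barcodes only 1 of the 3 tested Aire-dependent genes was called higher by Fezf2. Of 5 tested Fezf2-dependent genes 2 rose by Fezf2, Nol4 by 2.05 and Resp18 by 2.29, and 2 rose by Aire, Nol4 by 2.62 and Maoa by 0.97.

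Markers of other TEC states differed in direction by state. The list of mTEC1, the medullary cells that make the chemokine Ccl21a, fell in 4 of 6 genes, among them Ccl21a by 3.24, Ly6a by 2.88 and Krt5 by 2.08 on the log2 scale. Of the age-associated TEC state aaTEC1, here Cldn3, Plet1 and 3 keratins that partly mark TECs in general, 4 of 5 genes fell. Plet1 fell by 2.41 and Krt18 by 1.97, while Cldn3 (-0.76, edgeR adjusted p = 0.0757) was not called. The cortical list fell in 3 of 9 genes, with Psmb11 and Cxcl12 down by 3.32 and 3.66, and Foxn1, the TEC regulator, rose by 1.19. The other 5 were not called, and of these Ly75, Ccl25, Tbata and Prss16 were higher in Aire-positive cells of Foxn1Lin male only. By Fezf2 the mTEC1 list fell in 2 of 6 genes and the aaTEC1 list in 3 of 5. Tuft genes fell in 2 of 4 by Aire and 3 of 4 by Fezf2, while M-cell genes (1 higher and 2 lower of 5) and neuroendocrine genes (1 and 1 of 4) moved in both directions. Without Ptprc-positive barcodes 2 of 3 tested neuroendocrine genes were higher and 0 lower by either split. Of 5 basal and cornified genes 1 was lower by Aire and 1 higher by Fezf2, a share near that of all genes. The general TEC list, which shares genes with the others, rose in 1 and fell in 5 of 7 by Aire.

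Proliferation genes rose in 5 of 5 tested genes by either split, with Mki67 higher by 3.03 and Top2a by 2.46 in Aire-positive cells. Their summed level was 338, 431 and 443 CPM in Aire-positive against 97.3, 90.4 and 96.0 CPM in Aire-negative cells, with no overlap. Split by Fezf2 among cells with no Aire UMI, 2 proliferation genes passed the filter and 0 were called, with a median of 1.195. All lists are drawn gene by gene in the plot of list members.

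Hematopoietic markers moved with the members. All 5 tested of 10 such markers rose in Aire-positive cells, Laptm5, Fcer1g and Rac2 by 2.51, 3.08 and 1.66, and the summed level of the list was 1402, 1262 and 1298 CPM against 684, 247 and 315 CPM. In Aire-positive cells 2, 3 and 1 of the 10 markers were at 0 UMIs (Tyrobp and Cd79a in Foxn1Lin female, Cd3e, Cd79a and Lck in Foxn1Lin male, Lck in wild type male), and in Aire-negative cells, whose sums are larger, 0, 1 (Tyrobp) and 0. The share of Ptprc-positive cells was 9.57% against 14.4%, 6.15% against 0.977% and 2.33% against 2.53%, higher in Aire-positive cells in 1 of 3 libraries. Of 7 dendritic cell markers Ccr7 (2.22) and Zbtb46 (1.72) were tested and rose. The summed level of the list was 293, 335 and 219 CPM in Aire-positive against 70.0, 86.3 and 65.5 CPM in Aire-negative cells, and Itgax, Clec9a and Xcr1 were each at 0 UMIs in Aire-positive or Aire-negative cells of at least 1 library, without a common direction. Fibroblast markers rose in 1 and fell in 2 of 4 tested by Aire, and the 1 endothelial marker tested, Flt1, was not called. By Fezf2 all 5 tested hematopoietic markers (median 1.91), both tested dendritic markers (median 1.39) and Flt1 (0.87) were called higher. The part of these markers in the members' result was not tested. Without Ptprc-positive barcodes 6 of 6 members and 5 of 5 hematopoietic markers were still called higher, with list medians of 2.66 and 2.34 by Aire, and the counts by Fezf2 were also 6 of 6 and 5 of 5, with medians of 2.07 and 2.22. The call of Flt1 by Fezf2 was lost without Ptprc-positive barcodes (0.88) and without the highest doublet scores (0.81).

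Aire-positive cells were deeper before thinning, with median UMIs of 13994 against 12168, 21816 against 13668 and 22227 against 16444. High doublet scores were found in 1.06% against 4.28%, 10.8% against 8.79% and 8.14% against 4.02% of cells. Without the highest doublet scores the members' median log2 fold change by Aire was 2.75, with 6 of 6 called. At equal depth Aire-positive cells did not hold more genes per cell, with medians of 1899, 1912 and 1947 against 1915, 1916 and 2034.5 (mean difference -35.8, exact two-sided sign-flip permutation test over 3 libraries, p = 0.25, the smallest these allow).

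Single genes rose more than the members. The 10 genes with the largest rise in Aire-positive cells were Madcam1 (5.58), Crhbp (5.11), Ccl1 (5.08), Gm42601 (4.92), Akr1c18 (4.92), Gm13028 (4.84), Golga7b (4.78), Dnmt3l (4.64), Crtac1 (4.63) and Serpina12 (4.58), as log2 fold changes over 3 libraries. They differed in how many of the 1567 thinned cells carried them. Gm13028 was found in 82 cells, 71 of them Aire-positive, and Crhbp in 71, 61 of them Aire-positive. Akr1c18 was found in 10 cells, of which 1 held 39.4% of its UMIs, and Ccl1 in 21 cells, of which 1 held 35.3%. Utf1 was found in 172 cells, 117 of them Aire-positive and 124 Fezf2-positive.

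By Fezf2 the largest rises included those of Oxt (4.90), Pomc (4.62), Mup6 (4.35), Erc2 (4.34), Atp2b2 (3.96), Gm36899 (3.73), Pla2g1b (3.69), Pnmal2 (3.63) and Utf1 (3.41). Oxt, the oxytocin precursor, rested on 11 cells and Mup6 on 8, of which 1 held 61.6% of its UMIs, whereas Gm36899 was found in 100 cells, 79 of them Fezf2-positive. Some genes were absent from the positive class. Vldlr had 0 UMIs in Aire-positive cells and was at least 8.75-fold lower there, against a limit of 3 UMIs over the class, and Rab11fip5 at least 6.87-fold, Glrb at least 7.23-fold, Muc5b at least 7.86-fold and Iglv1 at least 8.30-fold. In Fezf2-positive cells Agr3 was at least 14.7-fold lower, Iglv1 at least 9.28-fold, Mtcl1 at least 6.79-fold and Bmp4 at least 6.49-fold. Cldn14, with 1 UMI against 307, was 91.9-fold lower (counting interval 16.4 to 3641). Iglv1 rested on 9 cells, of which 1 held 57.0% of its UMIs, and Muc5b on 10, while Vldlr was found in 87.

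The lineage reporter was less often detected in Aire-positive than in Aire-negative cells. It was found in 66.0% of Aire-positive against 87.5% of Aire-negative cells in Foxn1Lin female and in 80.0% against 93.8% in Foxn1Lin male, and in 75.5% against 84.3% and 83.1% against 93.4% by Fezf2. In wild type male it was at 0 in both Aire classes, which allows up to 1.74% and 0.446%. The exact 95% binomial intervals of the positive and negative class did not overlap by Aire in either lineage-trace library and overlapped by Fezf2 in both, from 66.0% to 83.5% against 79.2% to 88.6% in Foxn1Lin female and from 72.3% to 91.0% against 89.9% to 95.9% in Foxn1Lin male. These intervals cover counting error only, and the difference was not tested.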

How the data were processed

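The deposited matrices hold whole-number UMI counts per feature and barcode, which the authors made with Cell Ranger 7.01 (name and version as in the submitters' processing notes) on mm10 (GRCm38) with transgene sequences added, introns included. The deposited library summaries give saturation as a percent. Levels are CPM, counts per 1e6 of the summed UMIs of a gate, with exact Poisson intervals, and shares have exact binomial (Clopper-Pearson) intervals at 95%. A count of 0 allows 3 counts. Intervals and limits cover counting error only. Saturation was 52.1%, 81% and 72.8%, so the libraries differ in depth.

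Doublets were kept. Scrublet in scanpy 1.11.5 marked 0, 15 and 1 barcodes by its automatic threshold, so an alternative left out the highest scores up to the stated multiplet rate (336, 148 and 218 barcodes). Cells were thinned to 4000 UMIs with seed 1, and a cell was positive with at least 1 UMI. Counts were summed per library and class and tested with edgeR 4.0.16 (TMM, robust quasi-likelihood fit, library as block, at least 60 UMIs over the sums, Benjamini-Hochberg adjusted p below 0.05), in Python 3.11.15 and R 4.3.3. DESeq2 1.42.0 was an alternative, and the fits were tested on simulated data. The library is the replicate, and p-values measure the spread between 3 libraries of pooled mice, of different sex and genotype. Adjusted p-values are over all genes tested. The SE given with an edgeR log2 fold change is its absolute value divided by the square root of the F statistic.

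The members and lists were chosen with earlier results of these data known. Named genes are the members, for each split the 10 genes with the largest and the 5 with the most negative log2 fold change among called genes with the same sign in 3 of 3 libraries, and up to 3 genes per list with the smallest adjusted p. Of the genes this rule names in the split by Fezf2, 1 is not reported here. Other genes of the lists (Foxn1, Maoa, Zbtb46, H2-DMa and Crabp1 among them) were chosen after their values were seen. Marker lists were taken from the study and from common knowledge. Gene positions are those of GENCODE vM21, and promoters are from RefSeq on GRCm38.p6.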

Additional observations from a re-analysis of the deposited data

Results flagged for a closer look

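For Prdm1 and Hdac9 the libraries moved in opposite directions in the comparisons given here, and whether the libraries differ was not tested, since each group has 1 library. The share of Prdm1-positive cells was higher in Aire-positive than in Aire-negative cells by 4.05 percentage points in Foxn1Lin female and 0.561 in Foxn1Lin male, while wild type male differed by -1.53. Split by Fezf2, the differences were 3.47, -1.33 and -0.389 points. The log2 ratio of Prdm1 in epithelial over fibroblast barcodes was 1.34, -0.946 and -0.699.

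For Hdac9 the log2 ratio of epithelial over endothelial barcodes was 0.691, -0.423 and -0.263, and that of epithelial over fibroblast barcodes was 1.59, -0.342 and -0.782. Foxn1Lin female was the exception in each of these ratios, and was also the shallowest library, with the most UMIs outside called barcodes. It is the only female library, so sex, depth and library cannot be told apart.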

How the results depend on the processing

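The log2 fold changes by Aire of Fezf2, Cd80, Cd86, Ubd, Hdac9 and Utf1 kept their direction and their call under every alternative that gave a value. The Aire share moved with the thinning, which also sets which cells are deep enough to be kept: 21.7%, 12.2% and 14.8% at 2000 UMIs, 35.7% and 26.2% in Foxn1Lin female and wild type male at 8000 UMIs, 19.1%, 10.5% and 12.7% when 2 UMIs were required, and 32.4%, 22.9% and 29.2% without thinning. By Aire, 1523 genes were higher and 1630 lower, with 2416 higher on unthinned counts and 1002 lower by DESeq2. By Fezf2, 1307 were higher and 1313 lower, which became 780 and 658 by DESeq2, 410 and 293 among cells with no Aire UMI, and 797 and 817 at 2000 UMIs, with 797 lower without the library block. In Aire-only against Fezf2-only cells the 106 higher and 56 lower genes became 203 and 183 with another random seed, 214 and 174 without the filter, 33 and 15 without the block and 233 and 112 at 8000 UMIs, so this count is unstable. Genes higher in cells with both than in Fezf2-only cells numbered 376, against 170 without the block and 881 at 8000 UMIs. Against Aire-only cells the 1 higher and 7 lower genes became 30 and 25 by DESeq2, 37 and 78 without the filter, 6 and 17 at 8000 UMIs and 0 and 1 with another random seed, so this count is unstable too.

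Leaving out 1 library at a time gave 843 to 1582 genes higher and 830 to 1606 lower by Aire, 672 to 1050 and 603 to 1114 by Fezf2, 3414 to 5126 and 2986 to 4132 against endothelial barcodes and 3091 to 4575 and 2931 to 4207 against fibroblasts, the lowest being without wild type male, except for the genes lower than in endothelial (2986) and fibroblast barcodes (2931), where it was without Foxn1Lin male. It gave 32 to 47 higher and 10 to 17 lower between Aire-only and Fezf2-only cells, and 137 to 203 higher in cells with both. Signs turned for Hdac9 against fibroblasts (-0.93 to 0.30 without 1 library, 0.034 without Foxn1Lin male and 0.30 without wild type male), for Utf1 between Aire-only and Fezf2-only cells (-0.082 to 0.997, the lowest without Foxn1Lin female), for the Cd86 share by Aire in Foxn1Lin female when 2 UMIs were required (-0.352 points) and for the Prdm1 share there at 8000 UMIs (-4.04 points). The cause was not tested. Groups of 1 library each cannot be paired with one another, and the comparisons of cell classes within libraries carry the library as a block. Depth limits Cd86 and Prdm1 most, which rest on 103 and 47 UMIs in the thinned cells.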
